A study of Mus musculus with 2 samples.

Results

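Peritoneal macrophages that carried transcripts of G2 phase and mitosis made up a small share of both libraries. They were defined as cells whose summed unique molecular identifiers (UMIs) of Mki67, Top2a, Birc5, Cenpf, Ube2c, Nusap1, Prc1, Cdk1 and Ccnb1 reached 8 or more per 10000, with under 3 UMIs of the B cell genes Cd79a, Cd79b and Ms4a1. Of 12619 barcodes kept, 336 met this definition and are called G2/M-high here, 114 in the Ankrd22 knockout library and 222 in the wild type library. They were set against G2/M-low cells of the same library, with a sum under 2 per 10000, of which there were 6091 in the knockout library, and 5814 in that of the wild type. Because the 9 genes chose the cells, every ratio of G2/M-high over G2/M-low cells is a description and no test of it was made.

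Resident peritoneal macrophages maintain themselves largely by dividing in place, without input from the bone marrow. In G2 and mitosis a cell builds up cyclin B with its kinase CDK1, condenses its chromosomes, attaches them to the spindle through kinetochores, and then destroys cyclin B through the anaphase-promoting complex before it splits. Many genes of this stage are held down in resting cells by a complex that binds the cell cycle homology region (CHR) of their promoters, and are turned on with B-MYB and FOXM1.

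A single library was made from Ankrd22-/- mice, edited with CRISPR/Cas9, and 1 from Ankrd22+/+ mice, each from the F4/80+ fraction that fluorescence-activated sorting took out of a peritoneal wash. F4/80 is the macrophage surface antigen encoded by Adgre1, and Ankrd22 encodes an ankyrin repeat protein. The number, age and sex of the animals, the strain and the deleted stretch of the gene are not given in the sources used here. With 1 library per genotype, genotype and library cannot be told apart, no p-value was possible, and intervals are 95% intervals that cover counting error only.

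Promoter windows are shown for 6 genes with transcripts that were high in the chosen cells. Ube2c, Top2a and Birc5 are genes of the definition, and Ccnb2, Cdc20 and Plk1 are not. The windows were picked by whether they hold TTTGAA, the letters of the CHR, with Birc5 added as a window without it. Which of them hold TTTGAA was thus set by the choice and is no finding. Each window runs from 250 bases before to 50 bases after the RefSeq start site in GRCm38.p6, written in the direction of the gene, and capitals mark TTTGAA (the CHR) or CCAAT, or their reverse complements TTCAAA and ATTGG. The windows lie at chr9:70421505-70421804, minus strand (Ccnb2, cyclin B2), at chr4:118437294-118437593, minus strand (Cdc20, an activator of the anaphase-promoting complex), at chr7:122159185-122159484, plus strand (Plk1, a mitotic kinase), at chr2:164769679-164769978, plus strand (Ube2c, a ubiquitin-conjugating enzyme of that complex), at chr11:99024140-99024439, minus strand (Top2a, a topoisomerase that untangles sister DNA) and at chr11:117848987-117849286, plus strand (Birc5, survivin, a subunit of the chromosomal passenger complex).
Ccnb2: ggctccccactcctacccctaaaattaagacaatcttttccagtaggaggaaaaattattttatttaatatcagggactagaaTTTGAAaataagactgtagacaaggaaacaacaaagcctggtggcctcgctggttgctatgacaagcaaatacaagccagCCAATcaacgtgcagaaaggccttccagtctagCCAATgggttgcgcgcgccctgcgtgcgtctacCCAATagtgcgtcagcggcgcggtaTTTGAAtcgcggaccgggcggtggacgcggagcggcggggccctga
Cdc20: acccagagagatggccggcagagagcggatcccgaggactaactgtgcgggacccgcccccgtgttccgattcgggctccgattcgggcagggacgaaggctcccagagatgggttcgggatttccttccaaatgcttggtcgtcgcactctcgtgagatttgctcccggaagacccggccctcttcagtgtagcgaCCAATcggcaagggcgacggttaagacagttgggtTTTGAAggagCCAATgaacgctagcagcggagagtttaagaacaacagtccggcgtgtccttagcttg
Plk1: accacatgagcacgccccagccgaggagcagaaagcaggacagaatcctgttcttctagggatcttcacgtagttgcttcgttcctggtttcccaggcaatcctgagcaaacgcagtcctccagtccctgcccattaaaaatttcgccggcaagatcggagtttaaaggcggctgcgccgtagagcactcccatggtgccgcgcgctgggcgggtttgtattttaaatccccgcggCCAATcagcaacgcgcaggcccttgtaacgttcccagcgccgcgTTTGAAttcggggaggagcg
Ube2c: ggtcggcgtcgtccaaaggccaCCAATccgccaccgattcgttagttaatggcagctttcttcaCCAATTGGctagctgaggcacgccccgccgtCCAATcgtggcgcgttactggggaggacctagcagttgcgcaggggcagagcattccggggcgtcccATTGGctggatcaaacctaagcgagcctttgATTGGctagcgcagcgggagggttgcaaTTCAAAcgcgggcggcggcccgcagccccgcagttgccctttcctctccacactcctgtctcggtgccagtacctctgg
Top2a: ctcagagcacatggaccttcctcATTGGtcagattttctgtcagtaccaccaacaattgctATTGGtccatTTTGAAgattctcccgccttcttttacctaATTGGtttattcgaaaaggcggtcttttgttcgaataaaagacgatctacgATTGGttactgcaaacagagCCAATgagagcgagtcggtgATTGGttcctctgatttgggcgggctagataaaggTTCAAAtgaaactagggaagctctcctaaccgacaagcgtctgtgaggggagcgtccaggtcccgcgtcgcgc
Birc5: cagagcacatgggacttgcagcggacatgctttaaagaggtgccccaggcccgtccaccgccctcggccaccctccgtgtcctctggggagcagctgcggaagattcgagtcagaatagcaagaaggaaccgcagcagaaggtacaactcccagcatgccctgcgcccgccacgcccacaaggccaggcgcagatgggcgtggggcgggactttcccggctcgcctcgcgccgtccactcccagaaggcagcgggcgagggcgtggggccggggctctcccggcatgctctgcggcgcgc

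Ccnb2 held 2 matches of TTTGAA and 3 of CCAAT, and Cdc20 held 1 TTTGAA, 18 bases before the start site, between 2 CCAAT matches. Plk1 held 1 of each. Ube2c had 1 TTTGAA and 6 CCAAT matches on either strand, of which a same-strand and an opposite-strand match overlap, and Top2a had 2 and 6. Birc5 held neither in this window, which says only that these letters are not in it. Over all 32851 windows, TTTGAA was present in 17.9% on either strand and CCAAT in 37.4%, and both in 6.95%. Of 149 windows of 128 genes on the mitotic lists used below, 42.3% held TTTGAA, 60.4% CCAAT and 32.9% both. These lists include the genes of the definition. The lists of condensin and cohesin, of G2/M transcription factors and of chromatin and histone variants are left out. Of 23 windows of large peritoneal macrophage identity genes, 7 held TTTGAA (30.4%), 10 CCAAT and 2 both. Of 26 windows of immediate early genes, 3 held TTTGAA (11.5%), 10 CCAAT and 2 both. Of 40 windows of S-phase replication genes, 6 held TTTGAA and 26 held CCAAT, and the E2F motifs TTGGCGC or TTCGCGC, sites of the factors that turn on S-phase genes, were in 42.5% on either strand, against 8.72% of mitotic and 3.89% of all windows. These are matches of letters and not binding sites.

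The knockout library held 6706 and the wild type library 6315 barcodes before filters, with medians of 15790.5 and 14569 UMIs. G2/M-high cells were the deeper ones, with a median of 31009.5 UMIs in the knockout library against 16012 in G2/M-low cells (1.94-fold), and 22195 against 14535 in the wild type library (1.53-fold). Thinning each cell to a fixed number of UMIs is given below, and the part of depth in the unthinned ratios was not tested. The median mitochondrial share was 1.32% of UMIs in G2/M-high and 1.48% in G2/M-low cells of the knockout library, and 0.568% and 0.697% in the wild type library. The libraries shared 15 barcode sequences, none of them on a G2/M-high cell. Ankrd22 had 0 UMIs in every cell group of both libraries, so it does not check the genotype labels.

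G2/M-high cells were 1.79% of kept knockout barcodes (114 of 6360, interval 1.48 to 2.15% by the exact binomial method) and 3.55% of those in the wild type library (222 of 6259, 3.10 to 4.04%). After each cell was thinned to 5000 UMIs the shares were 1.92% (119 of 6208) and 3.78% (223 of 5904). The knockout share was thus the lower at the deposited and at the equal depth, and whether mice of these genotypes differ was not tested. The median 9-gene sum of G2/M-high cells was 22.1 per 10000 in knockout and 26.8 in wild type cells. Just inside the threshold, at 8 to 10 per 10000, lay 15 knockout and 19 wild type cells, and just outside, at 6 to 8, lay 12 and 21. Of G2/M-low cells, 79.4% in the knockout library and 77.9% in the other had no UMI of any of the 9 genes.

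The chosen cells carried macrophage transcripts. Adgre1 was at 421 counts per 1000000 UMIs (CPM) in G2/M-high against 619 CPM in G2/M-low knockout cells, and at 413 against 688 CPM in the wild type library. The lysozyme gene Lyz2 was at 20854 against 25655 CPM and at 45738 against 60588 CPM. Of markers of other cells, all 10 mesothelial and fibroblast markers and 10 of 12 T and NK cell markers had 0 UMIs in G2/M-high cells of both libraries, with summed levels of 0.290 CPM (knockout) and 0.195 CPM (wild type) for the T and NK list in those cells. The B cell list, which holds 3 genes that the choice of cells kept low, summed to 246 against 369 CPM in knockout and 202 against 302 CPM in wild type cells. Outside those 3, Ighd and Pax5 were at 0 in G2/M-high cells of both. Of 10 neutrophil markers 6 were at 0 there (S100a9, Ly6g, Retnlg, Mmp8, Ngp and Camp), and the list summed to 74.2 against 88.0 CPM in knockout and 93.8 against 97.5 CPM in wild type cells. At 0 were also 5 of 9 dendritic cell markers (Flt3, Xcr1, Clec9a, Ccr7 and Siglech), while Zbtb46, Cd209a, Itgae and Batf3 were not at 0 in both. The summed dendritic list was lower in G2/M-high cells of the knockout (13.0 against 22.8 CPM). It was higher in those of the wild type library (27.3 against 17.3 CPM), so these lists do not exclude a few dendritic cells. Mast cell and eosinophil markers summed to 0.869 and 0.390 CPM in G2/M-high cells, with 7 of 10 at 0, and erythroid markers to 14.8 and 1.36 CPM.

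The label of G2 and mitosis held only in part, because many of the chosen cells also carried transcripts of DNA replication. The summed UMIs of 10 S-phase genes (Mcm2 to Mcm7, Pcna, Gins2, Tyms and Cdc6) had a median of 14.1 per 10000 in G2/M-high against 1.15 in G2/M-low knockout cells, and of 5.24 against 0.881 in the wild type library. A sum of 8 or more, a value chosen after the data were seen, was reached by 80 of 114 G2/M-high knockout cells (70.2%, 60.9 to 78.4%) and by 89 of 222 wild type cells (40.1%, 33.6 to 46.9%). At equal depth the shares were 70.8% and 45.2%. Among G2/M-low cells it was reached by 3.73% in knockout and 1.08% in wild type cells. Over all kept cells without the B cell mark the order of the libraries was opposite to that of the G2/M-high share, with 383 of 6309 knockout cells (6.07%, 5.49 to 6.69%) against 209 of 6218 wild type cells (3.36%, 2.93 to 3.84%) at 8 or more. Of the cells with such an S-phase sum, 20.9% in knockout and 42.6% in wild type cells were also G2/M-high.

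**Figure D1:**
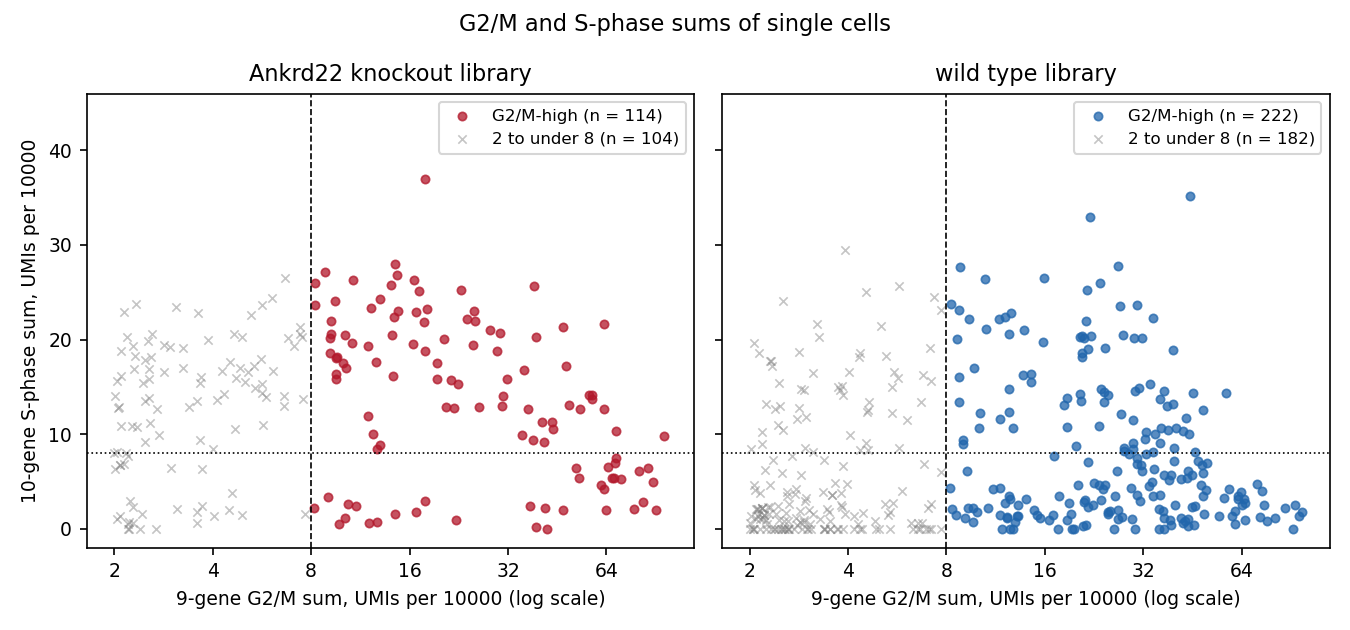
Each point is 1 cell, with its 9-gene G2/M sum (log scale) on the horizontal and its 10-gene S-phase sum on the vertical axis, both in UMIs per 10000, in the knockout (left) and wild type (right) library; filled points are G2/M-high cells, crosses are cells with a sum of 2 to under 8, and the lines stand at 8. Of the filled points 70.2% in the left and 40.1% in the right panel lie on or above the dotted line.

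The G2/M-high cells spanned a range, and its ends differed in named genes. The anaphase activator Cdc20 was at 4.99, 32.8 and 124 CPM in knockout cells with sums of 8 to 16, 16 to 32 and 32 or more, and at 26.1, 50.3 and 130 CPM in the same ranges of the wild type library. Ccnb2 followed the same order, at 76.5, 86.3 and 285 CPM and at 126, 153 and 310 CPM. So did the centromeric histone gene Cenpa, at 50.7, 106 and 374 CPM and at 147, 209 and 469 CPM. These genes were highest in the top range of both libraries. The helicase subunit gene Mcm6, a gene of replication, ran the other way, at 290, 225 and 94.5 CPM in knockout and 140, 92.8 and 47.0 CPM in wild type cells. The PCNA-binding factor gene Pclaf was highest in the middle range, at 502, 757 and 603 CPM and at 456, 611 and 451 CPM. The linker histone gene Hist1h1b stood at 220, 1090 and 1615 CPM in the knockout, and at 198, 523 and 573 CPM in the wild type library. The ranges are cut on the sum that chose the cells, and rest on 41, 30 and 43 knockout cells and on 57, 79 and 86 wild type cells.

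**Figure D2:**
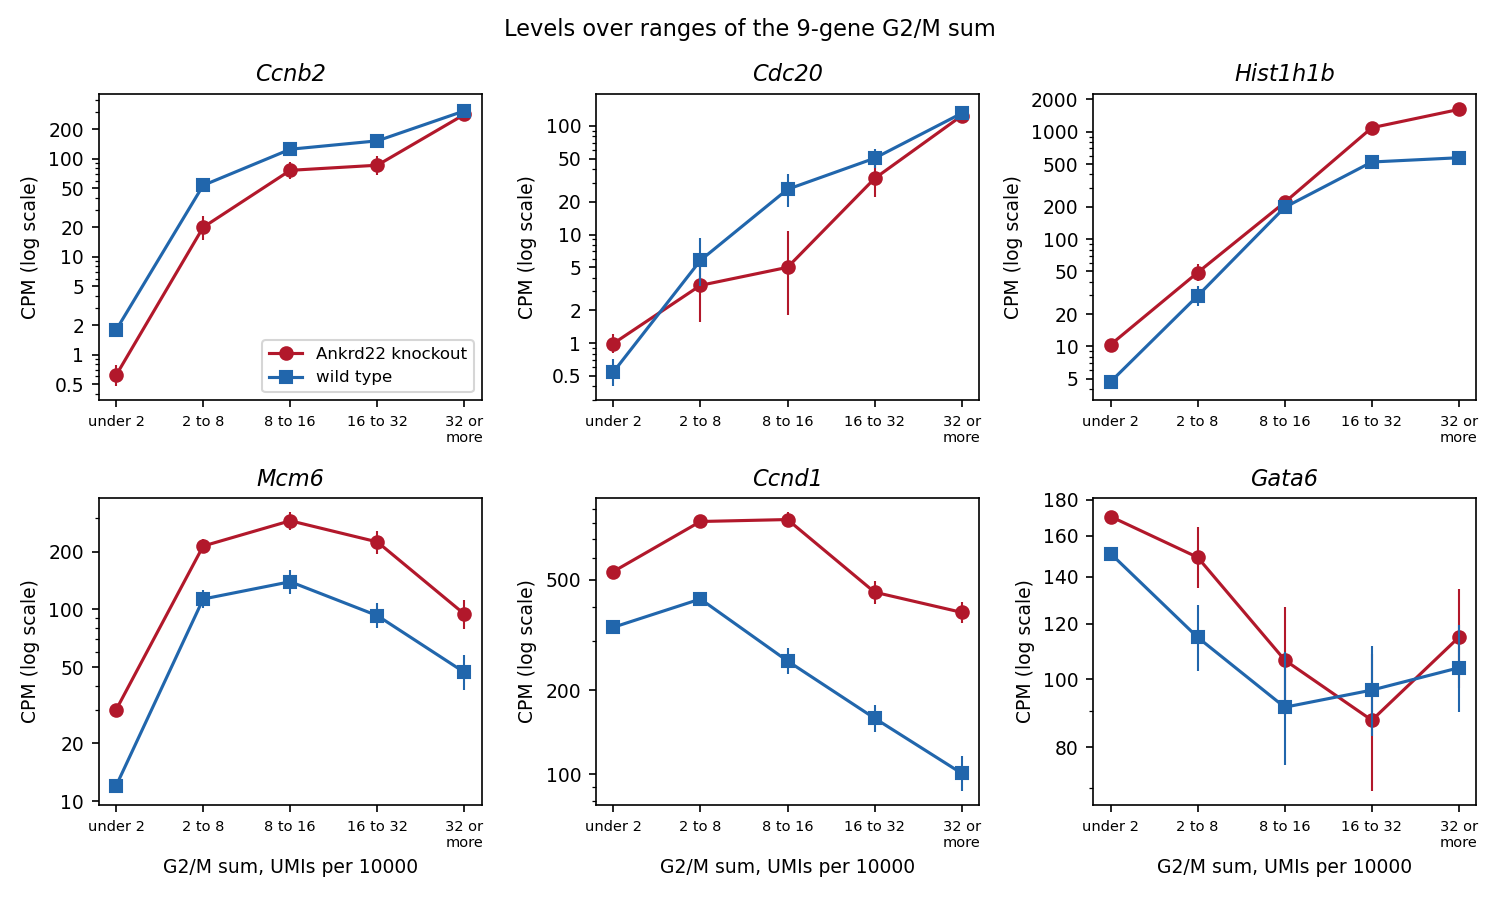
Summed CPM (log scale) of 6 genes over 5 ranges of the 9-gene sum in UMIs per 10000, with the lowest range holding the G2/M-low cells; circles are the knockout and squares the wild type library, and bars are exact Poisson 95% intervals for counting error. Ccnb2 and Cdc20 are highest at 32 or more in both libraries, Mcm6 is highest at 8 to 16, and the Ccnd1 lines lie furthest apart, relative to each other, at 32 or more (382 against 101 CPM).

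Splitting the G2/M-high cells by the S-phase sum set the same genes apart. The 34 knockout cells under 8 on the S-phase sum, against the 80 at 8 or more, held 435 against 69.0 CPM of Ccnb2 and 180 against 18.1 CPM of Cdc20. In the wild type library the 133 cells under 8, against the 89 at 8 or more, held 286 against 104 CPM of Ccnb2 and 117 against 21.1 CPM of Cdc20. The kinetochore motor gene Cenpe was at 396 against 97.1 CPM and at 166 against 73.2 CPM. The S-phase side held more Rrm2, the ribonucleotide reductase subunit that makes deoxynucleotides, at 36.2 CPM in cells under 8 against 204 CPM in knockout and 44.9 against 247 CPM in wild type cells. Stmn1, which encodes the tubulin-binding protein stathmin, differed less across the split, at 943 against 1106 CPM and 970 against 1527 CPM.

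The 9 genes of the definition were all far above the G2/M-low level, as the choice of cells requires. Their log2 ratios ran between 5.85 and 7.77 in knockout cells and between 5.80 and 7.72 in wild type cells. Mki67, which encodes the Ki-67 coat protein of mitotic chromosomes, was at 714 against 3.27 CPM and at 476 against 5.69 CPM, and Top2a at 613 against 4.58 CPM and 501 against 3.52 CPM. Birc5 was at 392 against 0.80 CPM and 448 against 1.15 CPM. Cenpf, a kinetochore protein gene, was at 292 against 0.357 CPM and 325 against 0.543 CPM, and Ube2c at 453 against 5.03 CPM and 562 against 4.84 CPM. The spindle-bundling protein genes Nusap1 and Prc1 were at 264 against 0.492 CPM and 267 against 0.733 CPM in knockout cells, and at 213 against 0.385 CPM and 211 against 0.747 CPM in wild type cells. Cdk1, the kinase gene itself, was at 178 against 1.64 CPM and 185 against 2.35 CPM, and Ccnb1 at 70.4 against 0.241 CPM and 81.9 against 0.249 CPM. Mki67 had the widest gap between the libraries' ratios among the 9, at 7.39 in knockout cells beside 6.15 in wild type cells. The marker that the definition did not use, Stmn1, was at 1066 against 9.13 CPM in knockout and 1218 against 10.3 CPM in wild type cells. After thinning Stmn1 was seen in 95.6% of G2/M-high against 3.14% of G2/M-low knockout cells and in 95.2% against 3.97% of wild type cells (99.1% against 8.71% and 100% against 9.40% unthinned). In barcodes with the B cell mark it was seen in 3.03% of 33 and 8.33% of 24 after thinning. The median depths before thinning were 31250 UMIs in G2/M-high, 16193 in G2/M-low and 16746 in B-marked knockout barcodes, and 22658, 14876 and 8054.5 in the same groups of the wild type library. As too shallow for thinning, 1, 131 and 18 knockout and 12, 293 and 17 wild type barcodes were left out.

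In all, 534 of the 5675 genes measured were 2-fold or more higher in G2/M-high cells of the knockout library (9.41%) and 36 were 2-fold or more lower (0.634%), with a median log2 ratio of 0.12. Genes counted as measured had 20 CPM or more in the higher group, and ratios had 1 CPM added to each side. In the wild type library 451 of 5204 were higher (8.67%) and 22 lower (0.423%), with the same median of 0.12. Of the higher genes 391 were shared (73.2% of the knockout and 86.7% of the wild type genes), and of the lower genes 10 (27.8% and 45.5%). Scaling by TMM factors shifted the ratios by -0.19 in each library, and gave 432 higher and 89 lower genes in the knockout, so that 82.9% of the counted genes were higher in place of 93.7%. In the wild type library it gave 363 higher and 62 lower genes, 85.4% in place of 95.3%. The highest ratio in both libraries among genes outside the definition belonged to Pclaf, at 609 against 1.44 CPM in the knockout (log2 ratio 7.97, interval 7.81 to 8.12) and 512 against 1.75 CPM in the wild type library (7.54, 7.38 to 7.70). The spindle-binding hyaluronan receptor gene Hmmr had ratios of 7.05 and 6.77, the spindle organiser gene Aspm 6.07 and 6.24, and the kinetochore subunit gene Spc24 5.92 and 6.30. Also among the 15 highest were Cdca3 (6.14 and 6.27) and the mitotic kinase gene Pbk (6.54 and 6.06). Many members of the lists below reached 20 CPM only in G2/M-high cells, so that their ratios had to be above 0, and the counts over measured members support nothing. These counts also follow from how the cells were chosen, and the lists below describe which parts of the division machinery they hold.

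Regulators of CDK1 were high with the definition's own cyclin B1. Of 22 listed mitotic cyclin and CDK1 regulator genes, 17 were measured in knockout and 16 in wild type cells, and 15 and 14 of these were at least 2-fold higher, with medians of 4.28 and 4.53. Ccna2 (cyclin A2) was at 134 against 0.260 CPM and 122 against 0.385 CPM, and Ccnb2 at 160 against 0.617 CPM and 205 against 1.79 CPM. Plk1 was at 44.9 against 0.193 CPM and 44.1 against 0.407 CPM. Genes of the transcription factors of this stage had lower medians, 0.73 (11 measured) and 0.82 (8 measured), with 5 and 4 at least 2-fold higher. The gene of the activator FOXM1 was at 27.5 against 0.125 CPM and 31.6 against 0.238 CPM, while Nfya, a subunit gene of the CCAAT-binding factor NF-Y, was at 23.8 against 13.9 CPM and 21.8 against 17.4 CPM.

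The anaphase-promoting complex list was less uniform. Of 18 listed genes 15 and 14 were measured and 5 and 6 at least 2-fold higher, with medians of 0.69 and 0.75. The activator gene Cdc20 was at 58.2 against 0.993 CPM and 74.1 against 0.543 CPM, and the inhibitor gene Fbxo5 (EMI1) at 104 against 1.80 CPM and 72.0 against 1.28 CPM. The alternative activator Fzr1 (CDH1) was at 32.5 against 16.3 CPM and 44.5 against 15.8 CPM, a log2 ratio of 0.95 and 1.44. Spindle checkpoint genes, which hold anaphase until all chromosomes are attached, had medians of 3.99 and 4.09, with 9 of 10 and 8 of 9 measured genes at least 2-fold higher. Among them the kinase gene Bub1 was at 63.2 against 0.299 CPM and 47.4 against 0.226 CPM.

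Most centromere, spindle and cytokinesis genes were high too. Of 29 listed centromere and kinetochore genes 22 were measured in each library, and 21 in each were at least 2-fold higher (medians 4.15 and 4.43). The outer kinetochore scaffold gene Knl1 was at 110 against 0.222 CPM and 74.7 against 0.294 CPM. The chromosomal passenger list had medians of 3.29 and 4.17, with 8 of 9 and 7 of 8 higher and its kinase gene Aurkb at 133 against 1.77 CPM and 112 against 1.54 CPM. Mitotic kinesins had medians of 5.05 and 5.12, with 9 of 11 and 10 of 12 measured genes at least 2-fold higher. The spindle-pole-separating motor gene Kif11 was at 133 against 0.212 CPM and 122 against 0.464 CPM. The spindle and tubulin list had medians of 2.23 and 2.67, with 19 of 24 and 21 of 25 higher, and the spindle assembly factor gene Tpx2 was at 187 against 1.02 CPM and 152 against 0.611 CPM. Of cytokinesis genes 11 of 14 were higher in each library (medians 4.78 and 4.81), with the central spindle motor gene Kif23 at 109 against 1.35 CPM and 127 against 1.80 CPM.

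Chromosome structure and replication genes were high as well. Condensin and cohesin genes had medians of 1.62 and 1.69, with 13 and 12 of 19 at least 2-fold higher, and the cohesin acetyltransferase gene Esco2 was at 122 against 0.193 CPM and 100 against 0.238 CPM. Of chromatin and histone variant genes 24 of 28 were higher in each library (medians 2.08 and 2.33), with the DNA-bending protein gene Hmgb2 at 1458 against 107 CPM and 1512 against 99.1 CPM. Replication-dependent histones had medians of 3.12 and 3.69, with 11 and 12 of 14 measured genes at least 2-fold higher and 1, Hist1h2bc, lower in the knockout (26.4 against 55.0 CPM). Histone genes have near-identical copies and mostly lack the poly(A) tails that this chemistry primes on, so their counts are uncertain. Of 45 listed genes of S-phase replication, 41 were measured in knockout and 35 in wild type cells, and each of these was at least 2-fold higher, with medians of 2.69 and 2.84. Only 9 of the 45 reached 20 CPM in G2/M-low cells of either library. Clspn, which encodes the checkpoint adaptor claspin, was at 124 against 2.17 CPM and 63.4 against 0.736 CPM. Nucleotide supply genes had medians of 1.59 (13 of 18 higher) and 2.04 (11 of 15 higher), with thymidine kinase Tk1 at 150 against 0.887 CPM and 109 against 0.702 CPM.

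**Figure D3:**
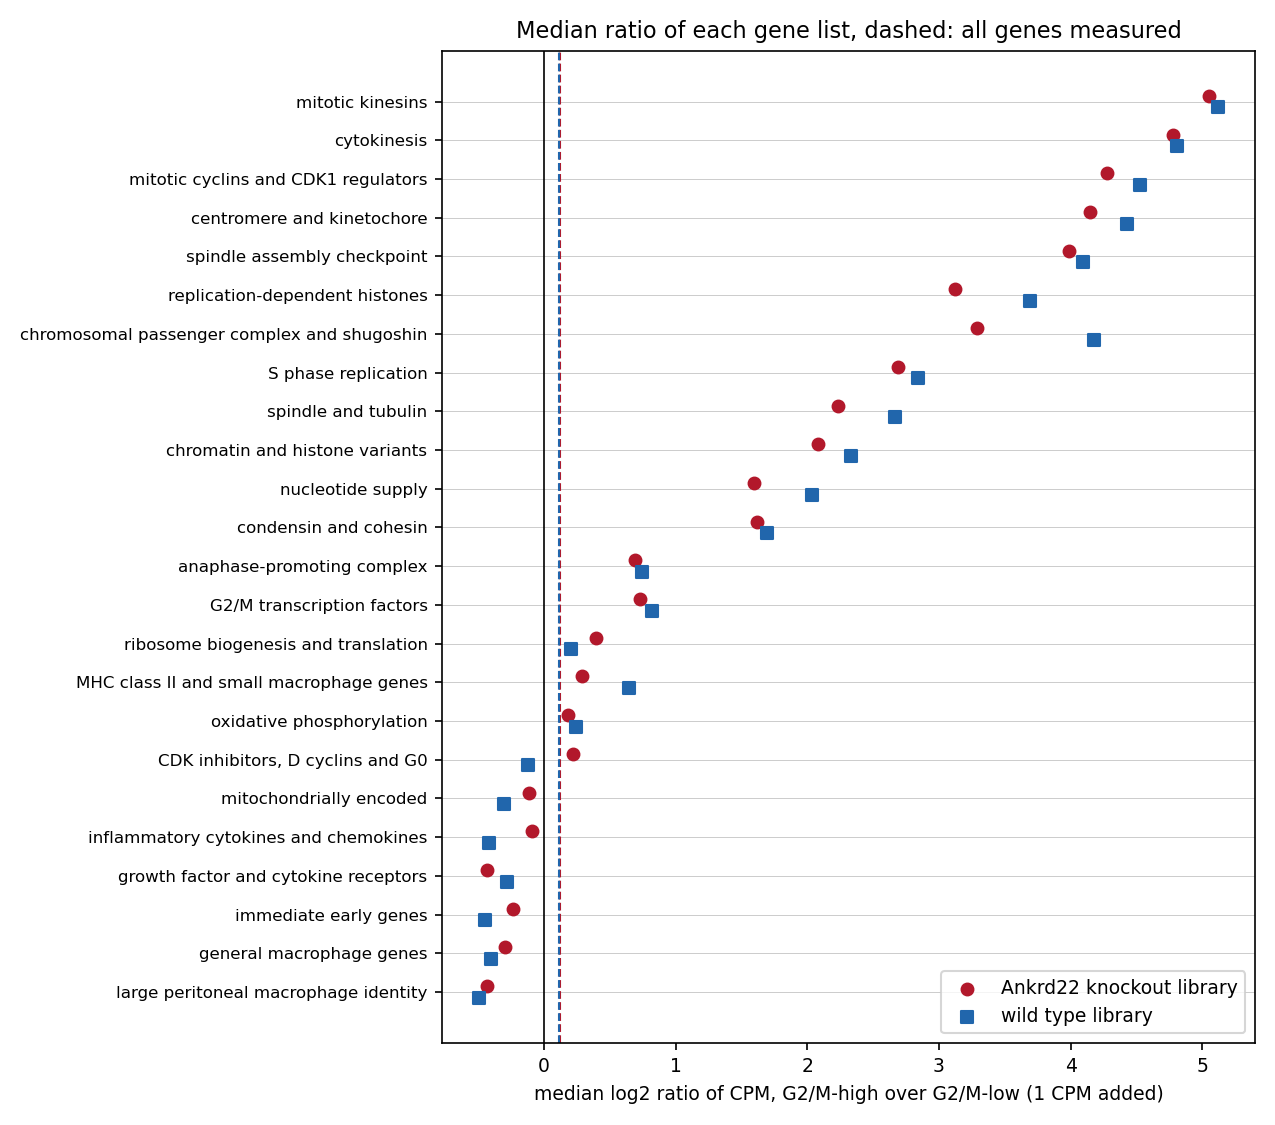
Median log2 ratio of CPM, G2/M-high over G2/M-low cells, for each gene list (rows), with circles for the knockout and squares for the wild type library and dashed lines at the median of all genes measured (0.12 in each). Mitotic kinesins have the highest medians shown (5.05 and 5.12), and large peritoneal macrophage identity genes lie at -0.43 and -0.49 in CPM but above 0 as mean UMIs per cell.

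Genes that restrain the cycle were not uniformly low. The INK4 inhibitor genes Cdkn2c and Cdkn2d were higher in G2/M-high cells, Cdkn2c at 59.4 against 15.9 CPM and 84.6 against 16.8 CPM, and Cdkn2d at 94.2 against 29.0 CPM and 110 against 32.3 CPM. Cdkn2a, the gene of the inhibitor p16 and of ARF, was lower, at 24.6 against 78.2 CPM in the knockout (log2 ratio -1.63, -1.94 to -1.33) and at 54.8 against 96.5 CPM in the wild type library (-0.81, -0.98 to -0.64). Mxd4, a MAX-binding repressor gene, was at 46.1 against 104 CPM and 84.4 against 107 CPM. The list of inhibitors, D cyclins and G0 genes had medians of 0.22 and -0.12 (0.035 and -0.31 under TMM), the wild type median being above 0 as UMIs per cell. Of 19 genes measured in knockout cells 4 were 2-fold higher or more and 2 lower (Cdkn2a and Mxd4). Of all genes there 9.41% were higher and 0.634% lower. Of 20 in wild type cells 3 were higher and 1 lower (Ccnd1), where 8.67% and 0.423% of all genes were.

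Identity genes of large peritoneal macrophages took a smaller share of the UMIs of G2/M-high cells, though most had more UMIs per cell. Of 30 listed genes 29 were measured in each library, and 12 in each were at least 1.5-fold lower, against 3.84% and 3.27% of all genes, with medians of -0.43 and -0.49. None was at least 1.5-fold higher, where 17.6% and 15.7% of all genes were, and 1 in knockout cells and none in wild type cells lay above 0, where 62.6% and 62.7% of all genes did. Counted instead as mean UMIs per cell, 24 of the 29 in knockout and 18 of the 29 in wild type cells were higher in the deeper G2/M-high cells. Gata6, the transcription factor gene of these macrophages, had a log2 ratio of -0.70 in CPM in knockout cells and -0.62 in wild type cells, and of 0.12 and -0.02 as UMIs per cell. Prg4, the gene of the lubricating glycoprotein lubricin, was at -0.74 and -0.71, and at 0.09 and -0.11 per cell. General macrophage genes had medians of -0.30 and -0.41 in CPM (19 measured in each library), and 17 of 19 in each were higher per cell.

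Some genes were lower in CPM and in UMIs per cell. Tgfb2, a TGF-beta ligand gene, was at 171 against 484 CPM in the knockout (log2 ratio -1.50) and 129 against 388 CPM in the wild type library (-1.58). The B cell chemoattractant gene Cxcl13 was at 204 against 591 CPM (-1.53) and 1553 against 3953 CPM (-1.35). The tetraspanin gene Cd63 was at 46.9 against 135 CPM (-1.50) and 33.1 against 88.9 CPM (-1.40). The efferocytosis receptor gene Timd4 was at 56.2 against 124 CPM and 102 against 160 CPM, and the complement receptor gene Vsig4 at 153 against 272 CPM and 212 against 413 CPM. Further genes among the 15 lowest were Rgs1 and Rgs2, regulators of G protein signalling (log2 ratios -1.12 and -0.89 for Rgs1, and -0.96 and -0.88 for Rgs2), the GTPase gene Rhoc (167 against 335 CPM and 47.6 against 88.9 CPM), the AP-1 gene Junb (-0.90 and -0.87), the glycolytic gene Aldoa (-0.87 and -0.89) and Itm2c (-1.06 and -0.90). Vmn2r26, Bcl2a1b, C4b and Gbp2b are also among them, and have close copies in the genome that could share reads. Timd4 is not among the 15 lowest. Of the 15 lowest genes, 14 in knockout and 15 in wild type cells also had fewer UMIs per cell in G2/M-high cells, Gbp2b in the knockout being the exception. Their median log2 ratio per cell was -0.17 in knockout and -0.30 in wild type cells. Some of them, Vsig4 in the knockout among them, thus differed little per cell.

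The class II genes H2-Aa and Cd74 lay above the G2/M-low level in both libraries, by more in the wild type library. Of 18 listed genes of MHC class II and small macrophages, 7 were measured in knockout and 12 in wild type cells. Their medians were 0.29 and 0.65 (0.10 and 0.46 under TMM). At least 2-fold higher were 0 and 5 of them, where 9.41% and 8.67% of all genes were. The medians are over different genes, as Ccr2, for one, reached 20 CPM only in G2/M-high cells of the wild type library. The antigen-presenting chain genes H2-Aa and Cd74 (the invariant chain) were at 114 against 80.1 CPM and 335 against 275 CPM in the knockout, and at 253 against 101 CPM and 723 against 326 CPM in the wild type library. The monocyte chemokine receptor gene Ccr2 was at 11.3 against 17.3 CPM in knockout cells and at 49.9 against 6.95 CPM in wild type cells. Cells with a summed class II level (H2-Aa, H2-Ab1, H2-Eb1 and Cd74) of 20 or more per 10000 were G2/M-high in 12 of 253 cases in the knockout (4.74%, 2.47 to 8.14%) and 44 of 435 in the wild type library (10.1%, 7.45 to 13.3%). Cells under that level were G2/M-high in 102 of 6056 cases (1.68%, 1.38 to 2.04%) and 178 of 5783 (3.08%, 2.65 to 3.56%). Most G2/M-high cells were class II low, while the share was higher among class II high cells of both libraries. With a class II sum of 50 or more the knockout value was 3 of 119 cells (2.52%, 0.523 to 7.19%), an interval that includes the share under that level, 1.79%, while the wild type value was 11.0%.

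**Figure D4:**
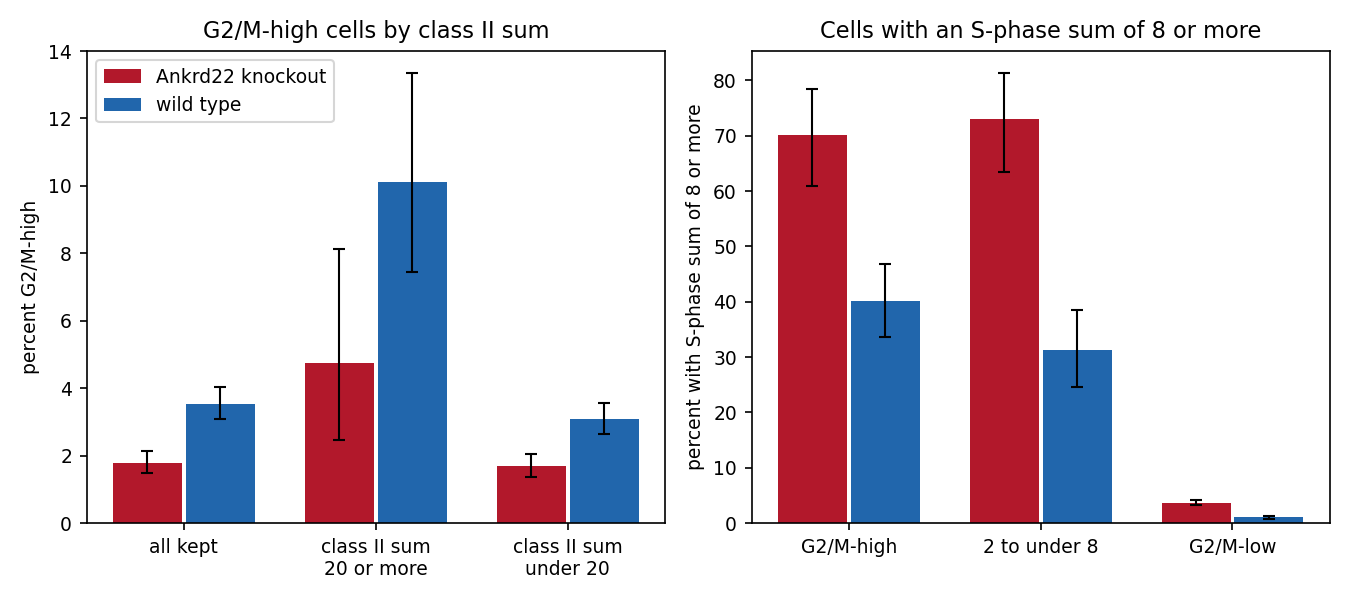
Left, percent of cells that are G2/M-high among all kept barcodes and at or above and below a class II sum of 20 per 10000; right, percent of cells with an S-phase sum of 8 or more among G2/M-high cells, cells with a 9-gene sum of 2 to under 8, and G2/M-low cells. Left bars of each pair are the knockout and right bars the wild type library, with exact binomial 95% intervals; the knockout bar is the lower in each pair on the left (1.79% against 3.55% over all kept barcodes) and the higher in each pair on the right (70.2% against 40.1% in G2/M-high cells).

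Further lists were not of the cell cycle or of macrophage identity. Ribosome biogenesis and translation genes had medians of 0.40 and 0.20, where the median gene lay at 0.12, and Ncl, which encodes nucleolin, was at 546 against 332 CPM and 301 against 217 CPM. Oxidative phosphorylation genes had medians of 0.18 (-0.0049 under TMM) and 0.24, with 0 of 28 at least 2-fold apart. Mitochondrially encoded transcripts had medians of -0.11 and -0.31 in CPM, and of 0.72 and 0.30 per cell. Immediate early genes had medians of -0.23 and -0.45 and inflammatory genes of -0.09 and -0.42 in CPM, with both lists above 0 per cell. Receptors of growth factors and cytokines, including Csf1r, the receptor gene for the macrophage growth factor CSF1 (233 against 337 CPM and 285 against 362 CPM), had medians of -0.43 and -0.28 in CPM, with 0 of 7 and 0 of 9 measured genes above 0, where 62.6% and 62.7% of all genes were, and medians of 0.39 and 0.32 per cell.

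The G2/M-high cells of the libraries were also set against each other, beside the G2/M-low cells. Of 5664 genes measured 188 were 2-fold or more higher in knockout cells (3.32%) and 100 were 2-fold or more lower (1.77%), 65.3% of the counted genes being higher, with a median log2 ratio of 0.22 over all genes. Under TMM, which moved every ratio by -0.26, there were 76 higher and 175 lower genes, with 30.3% of the counted genes higher, so counts in either direction depend on the scaling. In G2/M-low cells 88 of 5068 genes were at least 2-fold higher (1.74%) and 108 lower (2.13%). The osteopontin gene Spp1 was at 312 CPM in knockout and 2.34 CPM in wild type G2/M-high cells (from 12 UMIs), a log2 ratio of 6.55 (5.93 to 7.15), beside 6.56 in G2/M-low cells. The chitinase-like gene Chil3, which has close paralogs, was at 737 and 35.3 CPM (4.35, beside 4.55). On the lower side Tnfaip3, the gene of the NF-kB inhibitor A20, was at 3.19 CPM from 11 UMIs and at 104 CPM (-4.64, beside -4.62), and the neutrophil chemokine gene Cxcl1 at 28.1 and 414 CPM (-3.83, beside -3.93). For Spp1, Chil3, Tnfaip3 and Cxcl1 the ratios in G2/M-high and G2/M-low cells were close. Of the genes always given, which earlier results of these data had named for a genotype difference, 20 of 21 were measured. By 2-fold or more, 7 were higher and 10 lower in G2/M-high cells, and 8 and 10 in G2/M-low cells. The counts follow from how these genes were picked. Among them were the nuclear RNAs Malat1 (8355 and 3639 CPM) and Neat1 (276 and 92.0 CPM), the calcium-binding protein genes S100a6 (1426 and 674 CPM) and S100a4 (1282 and 807 CPM), the complement gene C1qa (1495 and 3574 CPM) and the growth factor gene Igf1 (5.80 and 39.8 CPM), all in G2/M-high cells. Fas and Lipa, a death receptor and a lysosomal lipase gene, were at 38.5 and 55.2 CPM and at 142 and 93.4 CPM.

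Replication genes were higher in the G2/M-high cells of the knockout library. All 41 measured genes of the S-phase replication list were higher in the knockout (39 of 40 measured under TMM), of which 35 reached 20 CPM in the wild type library, with a median log2 ratio of 0.68, where 71.8% of all genes were above 0 and the median gene lay at 0.22. Of them 24 were 1.5-fold higher or more and 0 lower, where 17.0% and 4.56% of all genes were. In G2/M-low cells 6 of 9 measured were 1.5-fold higher and 0 lower, where 11.4% and 3.93% of all genes were, with a median of 0.91. The 6 at least 2-fold higher in G2/M-high cells were Mcm2, Mcm3, Mcm4, Mcm6, Ccne2 and Cdc6, with Mcm6 at 197 and 87.6 CPM and the cyclin E2 gene Ccne2 at 71.0 and 29.1 CPM. The list's median stayed above 0 under TMM (0.41). Of the mitotic lists, condensin and cohesin genes had a median of 0.52 (7 of 19 at least 1.5-fold higher) and the chromosomal passenger list 0.40 (3 of 9), both above 0 under TMM (0.26 and 0.15). Others lay closer to the median gene, with cyclins and CDK1 regulators at 0.13 (17 measured), centromere and kinetochore genes at 0.19 (22 measured), mitotic kinesins at 0.13 (13 measured) and cytokinesis genes at 0.05 (14 measured), and none of these 4 had a gene at least 2-fold apart. Under TMM their medians were below 0, at -0.13, -0.059, -0.16 and -0.21. These values sit beside the larger share of knockout cells with a high S-phase sum (70.2% against 40.1%), and the part of that mix in the ratios was not tested. Within cells of an S-phase sum of 8 or more, Clspn was at 154 and 106 CPM, Hells, a chromatin remodelling helicase gene, at 187 and 91.7 CPM, and Rrm2 at 204 and 247 CPM. Ribosome biogenesis genes had a median of 0.69 (17 measured, 0.43 under TMM), beside 0.47 in G2/M-low cells (0.17 under TMM). Among them the snoRNP gene Nop56 was at 77.7 and 23.6 CPM (1.68, beside 0.80 in G2/M-low cells) and the RNA helicase gene Ddx21 at 132 and 43.5 CPM.

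Cyclin D1 had the largest ratio between the libraries among the genes of the cell cycle lists. Ccnd1 encodes the D cyclin through which growth signals activate CDK4 and CDK6 in G1. It was at 554 CPM in G2/M-high against 535 CPM in G2/M-low knockout cells (log2 ratio 0.05, -0.02 to 0.12, and -0.14 under TMM), and at 162 against 337 CPM in the wild type library (-1.06, -1.16 to -0.96). Knockout over wild type, the ratio was thus 1.77 (1.65 to 1.89) in G2/M-high and 0.66 in G2/M-low cells. By range of the 9-gene sum from under 2 to 32 or more, Ccnd1 was at 535, 810, 823, 451 and 382 CPM in knockout and at 337, 426, 255, 159 and 101 CPM in wild type cells. It was lowest at the mitotic end in both libraries, and the knockout was higher in every range. Within cells of a high S-phase sum it was at 626 CPM in knockout and 233 CPM in wild type cells, and in the rest of the G2/M-high cells at 335 and 105 CPM. After thinning Ccnd1 was seen in 80.5% of G2/M-high against 63.3% of G2/M-low knockout cells, and in 41.0% against 63.4% of wild type cells (95.6% against 74.5% and 71.0% against 81.8% unthinned). In B-marked barcodes, which also held macrophage transcripts (Prg4 in 97.0% and 70.8%), it was seen in 51.5% and 12.5%. Genotype and library cannot be told apart here either.

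**Figure D5:**
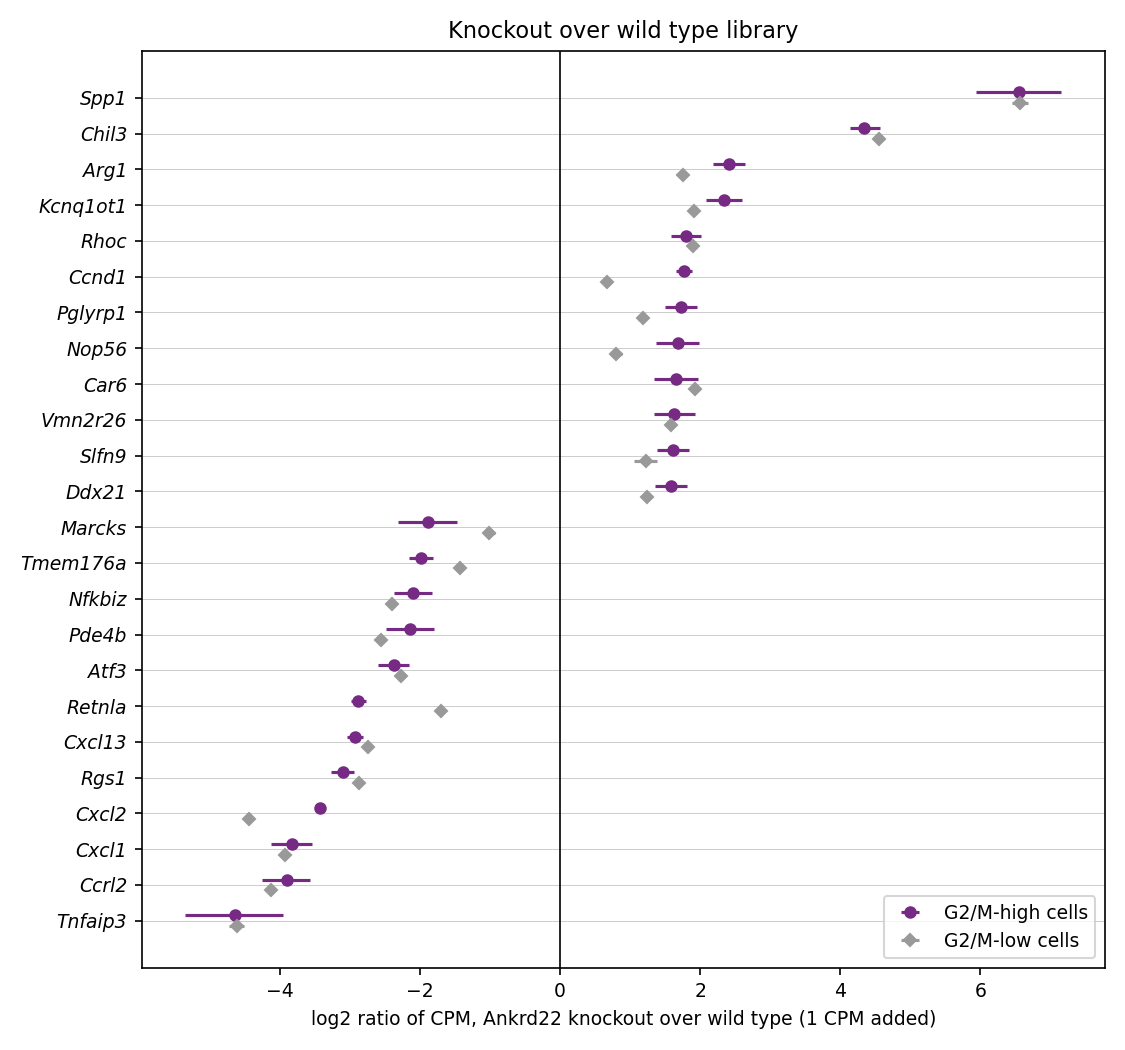
Log2 ratio of CPM, knockout over wild type library with 1 CPM added, in G2/M-high cells (circles) and G2/M-low cells (diamonds) for the 12 highest and 12 lowest named genes, with bars for 95% counting intervals. Spp1 stands at 6.55 and 6.56, while Ccnd1 (1.77 and 0.66), Retnla (-2.88 and -1.70) and Cxcl2 (-3.43 and -4.44) differ between the kinds of cell.

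Retnla, Marcks and Cxcl2 also had ratios that differed between the kinds of cell. Retnla, which encodes the secreted resistin-like molecule of alternatively activated macrophages, was at 226 CPM in knockout and 1668 CPM in wild type G2/M-high cells (-2.88, -2.99 to -2.77), beside -1.70 in G2/M-low cells. Marcks, the gene of a membrane-bound actin regulator, was at 14.5 and 56.2 CPM (-1.88, beside -1.01). The neutrophil chemokine gene Cxcl2 was at 598 and 6453 CPM (-3.43), beside -4.44 in G2/M-low cells. Among class II and small macrophage genes 6 of 11 measured were at least 2-fold lower in the knockout and 0 higher (median -1.08, beside -0.39 in G2/M-low cells), and the median was -0.48 when only cells under the class II sum of 20 were compared. Of inflammatory genes 14 of 18 were lower by 2-fold or more and 0 higher (median -1.66, beside -2.26). Beside the counts of both lists, 1.77% of all genes were lower and 3.32% higher by 2-fold or more in G2/M-high cells. All 11 measured mitochondrially encoded transcripts were higher in the knockout (median 1.31, beside 1.04), where 71.8% of all genes were, with mt-Nd1 at 2305 and 982 CPM. The remaining genes of the 12 highest were Arg1 (arginase, 205 and 37.6 CPM), the antisense transcript Kcnq1ot1 (160 and 30.8 CPM), Rhoc (1.79), Pglyrp1 (1.73), Car6 (1.65), Vmn2r26 (1.63) and Slfn9 (1.61). The strand setting of the counting is not given in the sources used here, so reads of Kcnq1ot1 and Kcnq1 cannot be told apart. The remaining genes of the 12 lowest were Ccrl2 (-3.90), Rgs1 (-3.10), Cxcl13 (-2.92), Atf3 (-2.37), Pde4b (-2.14), Nfkbiz (-2.10) and Tmem176a (-1.99).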

How the data were processed

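The 2 libraries were read as the UMI counts that the authors deposited, which come from Cell Ranger 6.1.2 per the file headers. The libraries were 10x 3' v3 ones per the labels' protocols. In the submitters' processing notes stand bcl2fastq and Seurat 4.1.0, with no role, and mm9, while all 55450 feature identifiers were found in GENCODE vM21 (GRCm38). The processing affects the values in that only called cells were counted and that 109 features repeat a symbol, of which the one with the most UMIs was used.

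Barcodes with 500 or more genes and at most 10% mt- UMIs were kept (6360 knockout, 6259 wild type, with about 3450790 and 5128310 UMIs in G2/M-high cells). Scrublet called 1 barcode in each library (0.0157% and 0.0160%), too few to have worked, so doublets were left in, and as an alternative the top-scored 324 and 313 barcodes were removed, at 0.8% per 1000 barcodes, of which 2 and 10 were G2/M-high. UMIs were summed per cell group and scaled to CPM, and ratios were log2 with 1 CPM added, with exact conditional binomial intervals, for genes that reached 20 CPM in the higher group. Cells of 1 library are no replicates, and no test was made. Tests of the code on simulated counts planted known ratios, and counted the genes past 2-fold and the intervals that held the planted ratio. The simulation had no spread between cells, and its intervals were made without the added CPM.

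The members, lists and thresholds were chosen with earlier results of these data known. Named genes were the 15 highest and 15 lowest in both libraries and the 12 highest and 12 lowest between the libraries at 50 CPM or more, leaving out mt-, ribosomal, immunoglobulin, haemoglobin and sex-linked genes, unnamed models and the 9 genes of the definition, and up to 5 members of each of 33 lists by size of ratio. Genes named for their genotype difference in earlier results were always given. Hist1h2bc, Ccr2, Cenpa, Gata6, Prg4, Mcm2, Mcm3, Mcm4, Mcm6, Cdc6 and Hells fall outside that rule and were picked after their values were seen. Promoter sequences are from RefSeq. Stmn1 had no entry among them. Alternatives were other thresholds, scalings, filters and cell weights. Tools were Python 3.11.15 with scanpy 1.11.5, numpy 2.4.6, pandas 2.3.3 and scipy 1.17.1, and R 4.3.3 with edgeR 4.0.16 (TMM) and DESeq2 1.42.0 (median of ratios).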

Additional observations from a re-analysis of the deposited data

Results flagged for a closer look

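Retnla and Cxcl2 had ratios of G2/M-high over G2/M-low cells in opposite directions in the libraries, with both counting intervals away from 0 and at least 1 of the ratios past 1.5-fold. Retnla had a log2 ratio of -0.86 in the knockout (226 against 412 CPM) and 0.32 in the wild type library (1668 against 1340 CPM). Among cells under the class II sum of 20 the values were -0.02 and 0.39. The share of cells with a Retnla UMI after thinning was the higher in G2/M-high cells of both libraries, at 34.5% against 17.1% in knockout and 63.3% against 42.3% in wild type cells (64.6% against 35.0% and 86.2% against 67.2% unthinned), beside 24.2% and 29.2% in B-marked barcodes. The median per cell was 0.389 against 0 UMIs per 10000 in knockout and 2.38 against 0.777 in wild type cells, so the opposite direction was in the summed level and not in the share or the median. Cxcl2 had a log2 ratio of 0.60 in the knockout (598 against 395 CPM) and -0.42 in the wild type library (6453 against 8617 CPM), and 0.59 and -0.34 among cells under that sum. The difference between the libraries was not tested for either gene, since each genotype has 1 library.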

How the results depend on the processing

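No paired analysis was possible because each genotype has 1 library. Limits are set by the number of G2/M-high cells, 114 and 222, and by 1 library a genotype. With a 9-gene sum of 12 or more the G2/M-high share was 1.38% in knockout and 3.07% in wild type cells, and removing doublets or thinning kept both shares within their intervals. With S-phase sums of 5 or 12 or more in place of 8, the shares of G2/M-high cells were 78.9% and 59.6% in knockout cells, and 50.5% and 28.4% in wild type cells.

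Counts of 2-fold genes moved most. Over G2/M-low cells, TMM and median of ratios gave 89 and 83 lower genes in knockout cells and 62 under each in wild type cells. With no filter beyond 1 UMI there were 984 higher and 230 lower genes in knockout cells, and 901 and 95 in wild type cells; with 50 CPM there were 293 and 17, and 220 and 11. As mean UMIs per cell, 3214 and 1592 genes were higher and 4 and 3 lower. In the wild type library 5 CPM added gave 13 lower genes and equal weight of cells 37. For knockout over wild type, TMM gave 76 higher and 175 lower genes, median of ratios 77 and 173, no filter 833 and 303, 50 CPM 98 and 58, and 5 CPM added 119 higher. Gata6 and Prg4 in the knockout turned to 0.12 and 0.0904 as mean UMIs per cell, which follows from the larger totals of G2/M-high cells. Of the further values recomputed under these settings, 547 stayed within their counting interval or 0.1 (log2, for list medians) and 321 moved by more without turning direction at 1.5-fold or beyond.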
